A study of Bos taurus with 6 samples.

Results

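The 10 core circadian clock genes PER1, PER2, PER3, CRY1, CRY2, ARNTL, CLOCK, NR1D1, NR1D2 and DBP were taken by symbol from 22839 different gene symbols. All 10 were counted in every library and passed the filter on low counts. Each library was made from the longissimus thoracis (LT) muscle of 1 of 6 Korean cattle (Hanwoo) steers, all raised conventionally on commercial feed. Computer image analysis of the ribeye had placed 3 of them in the group with a high number of fine marbling particles (NFMP; steers 3-8, 10-8 and 10-9, aged 32.5, 33.8 and 34.5 months) and 3 in the low-NFMP group (steers 3-1, 3-3 and 10-16, aged 37.8, 33.7 and 35.4 months). Total counts lay between 16283873 and 17192750. No source used here gives the hour at which each steer was slaughtered, so the levels were not placed on a time of day. The defining markers of skeletal muscle were abundant in all libraries, with 10 of 10 listed fibre genes tested and TTN, ACTA1 and MB at the top of them.

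The circadian clock is a transcriptional feedback loop that runs in nearly every cell, muscle fibres included. The proteins of ARNTL (also called BMAL1) and CLOCK bind together to E-box elements and switch on the PER and CRY genes, whose proteins return to the nucleus and repress them. In a second loop NR1D1 and NR1D2 (REV-ERB alpha and beta), which are also E-box genes, repress ARNTL through RORE elements, and ROR proteins activate it through the same elements. DBP is an output gene that acts on D-box elements. The genes driven through E-boxes and D-boxes (here PER1, PER2, PER3, NR1D1, NR1D2 and DBP) and those driven through ROREs (here ARNTL, CLOCK and CRY1) therefore peak at different times of day and form opposite arms. The arms are named by these elements, because no source used here gives their phase in bovine muscle. CRY2 was placed in neither arm. As a CRY gene, CRY1 is also switched on through E-boxes, so its place in the RORE arm is a choice made here.

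Comparing high with low NFMP, the fold changes of the arms had opposite signs. ARNTL was lower in the high-NFMP group (2.35-fold), and DBP was higher (2.30-fold). These 2 of the 10 genes passed the threshold of the study (unadjusted p below 0.05 together with a more than 2-fold change), against 3.9% of the 15039 tested genes (2.53% higher and 1.36% lower). At an unadjusted p below 0.05 alone there were 5 of 10, namely CRY2, DBP and NR1D1 higher and CLOCK and ARNTL lower, against 11.5% of all tested genes (5.73% higher and 5.74% lower). With library totals in place of trimmed mean of M-values (TMM) normalization, 2 were higher and 3 lower. After Benjamini-Hochberg adjustment over all genes, the quasi-likelihood test of edgeR gave none of the 10 a p below 0.05, the smallest being 0.102 for CRY2, against 0.685% of all tested genes. Without the filter on low counts, ARNTL alone of the 10 had an adjusted p below that level by edgeR (0.0352), against 1.04% of all genes. With DESeq2, 3 of the 10 did (CRY2, ARNTL and DBP), against 1.97% of the genes it adjusted. Unless another tool is named, p-values are from edgeR. In 4 of the 10 the steers of the groups did not overlap (CRY2 and DBP above, ARNTL and CLOCK below), against 17.1% of all tested genes (7.97% above and 9.16% below). All 6 genes of the E-box and D-box arm had a log2 fold change above 0 (median 0.42) and all 3 of the RORE arm one below 0 (median -0.59), against a median of 0.02 over all tested genes. In whole muscle, fewer cells of a type and less RNA per cell cannot be told apart.

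**Figure D1:**
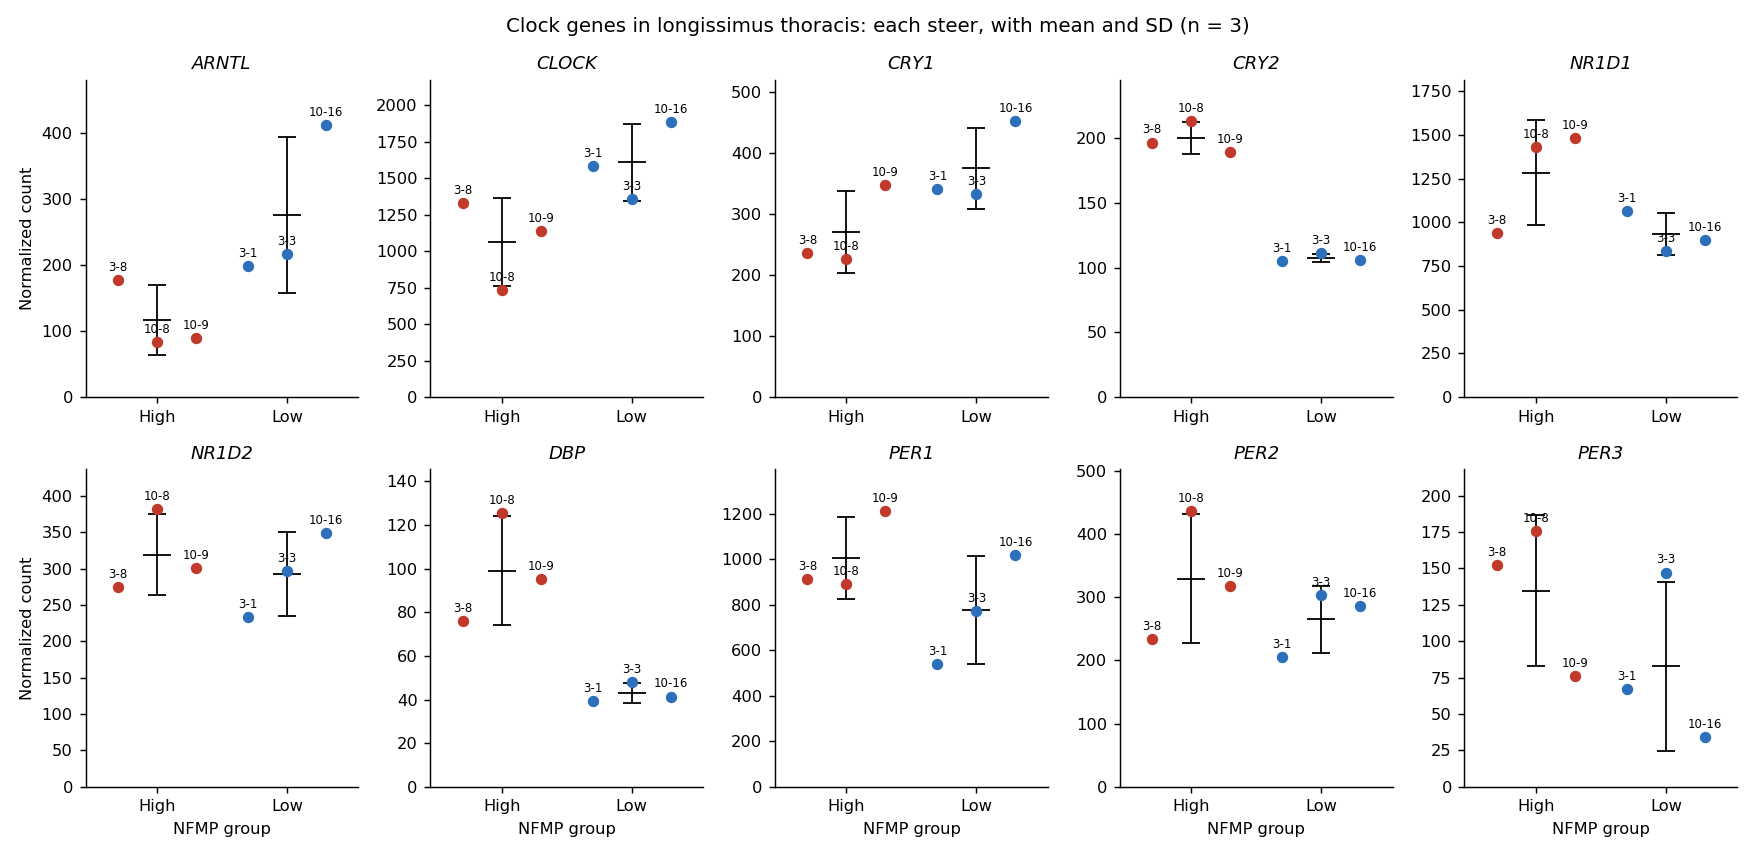
Normalized count of each clock gene (vertical axis, linear and starting at 0) in each steer, by NFMP group. Points are single steers with their labels, and the bar and whiskers give mean and SD of 3 steers. CRY2, DBP, ARNTL and CLOCK have no overlap between the groups, and steer 10-16 has the highest ARNTL, CLOCK and CRY1 and the lowest PER3.

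ARNTL, the activator of the loop, had 177, 83.3 and 90.3 normalized counts in steers 3-8, 10-8 and 10-9 of the high-NFMP group, against 199, 217 and 412 in steers 3-1, 3-3 and 10-16 of the low-NFMP group. Values of other genes follow the same order of steers. For normalized counts, each count was divided by the TMM-scaled size of its library and multiplied by the mean of these sizes. Every high-NFMP steer lay below every low-NFMP steer, but 3-8 was close to 3-1, while 10-8 and 10-9 were far below and 10-16 far above the rest. The group means were 117 ± 52.4 (SD, n = 3) and 276 ± 118 (SD, n = 3), and the log2 fold change was -1.23 (standard error, SE, 0.35; unadjusted p = 0.00389, adjusted p = 0.177). Without steer 10-16 the log2 fold change was -0.80, below the fold change limit, and the unadjusted p was 0.0292.

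CLOCK, the DNA-binding partner of ARNTL, was also lower. Its normalized counts were 1327, 735 and 1135 in the high-NFMP steers and 1584, 1360.3 and 1884 in the low-NFMP steers. The gap between the groups was narrow, from 1327 in 3-8 to 1360.3 in 3-3. The log2 fold change was -0.59 (SE 0.22, unadjusted p = 0.0176, adjusted p = 0.316), but it was -0.36 without steer 10-8 (unadjusted p = 0.107) and -0.44 without 10-16 (0.104). After quantile normalization with limma the unadjusted p was 0.0614. NPAS2, which can take the place of CLOCK, was counted far less often, at 58.2 ± 9.74 against 81.0 ± 16.1 normalized counts (SD, n = 3 each). Its log2 fold change was -0.48 (SE 0.31, unadjusted p = 0.145).

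The cryptochromes CRY1 and CRY2, which repress ARNTL and CLOCK, had log2 fold changes of opposite sign. CRY2 had 197, 213 and 189.6 normalized counts in the high-NFMP steers and 105, 111 and 106 in the low-NFMP steers. It had the smallest spread within the groups of the 10 genes, with coefficients of variation of 6.12% and 2.93%, and the smallest p. The counting error alone was between 7.18% and 9.76% of a value. This is above both coefficients, so they do not show that CRY2 was held more tightly among steers than other genes. The means of 199.8 ± 12.2 and 107 ± 3.15 (SD, n = 3 each) gave a log2 fold change of 0.89 (SE 0.23, unadjusted p = 0.00131, adjusted p = 0.102), just under the fold change limit. CRY1 had 236, 227 and 348 normalized counts in the high-NFMP steers and 342, 333 and 452 in the low-NFMP steers. Steer 10-9 lay among the low-NFMP steers, and the log2 fold change of -0.47 (95% interval -0.96 to 0.01) had an unadjusted p of 0.0546. With a steer left out this log2 fold change ran from -0.28 without 10-16 (unadjusted p = 0.302) and -0.32 without 10-8 (0.227) to -0.68 without 10-9 (0.00958). The unadjusted p of CRY1 was 0.0394 with library totals alone and 0.0370 without the filter on low counts. It was 0.0669 with DESeq2, 0.0989 after quantile normalization with limma and 0.212 with age as a term in edgeR.

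**Figure D2:**
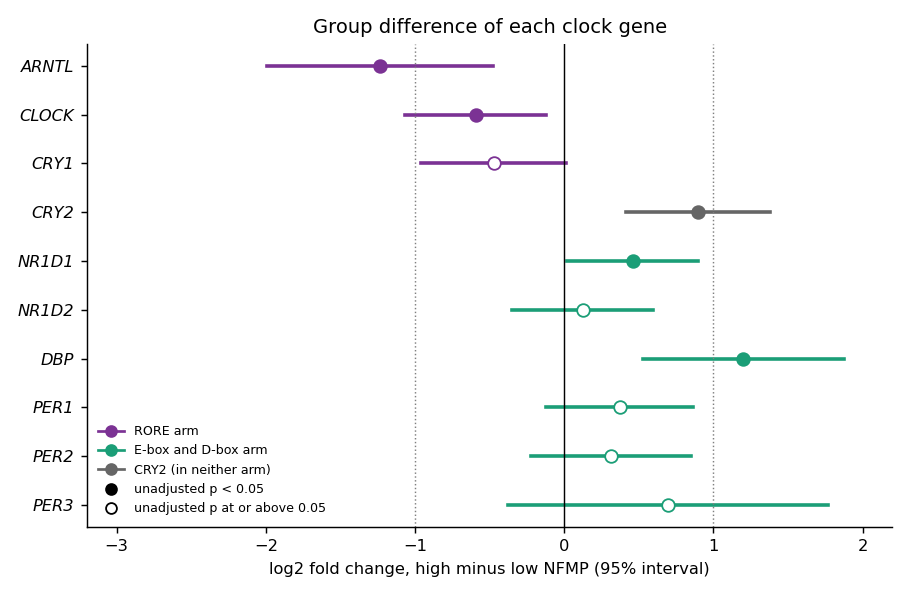
The log2 fold change of each clock gene (horizontal axis, high minus low NFMP) with its 95% interval from edgeR, coloured by arm. Filled points have an unadjusted p below 0.05, and dotted lines mark a fold change of 2. The RORE arm lies left of 0, the E-box and D-box arm right of 0, and only ARNTL and DBP have a point beyond a dotted line.

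NR1D1, the repressor of ARNTL, had 941, 1429 and 1482 normalized counts in the high-NFMP steers and 1065, 837 and 898 in the low-NFMP steers. Steers 10-8 and 10-9 stood above the rest, and 3-8 lay within the low-NFMP range. The log2 fold change was 0.46 (SE 0.21, unadjusted p = 0.0412, adjusted p = 0.413). The unadjusted p was above 0.05 without steer 10-8, 10-9, 3-3 or 10-16, reaching 0.138, and with library totals alone (0.0755) or quantile normalization with limma (0.0997). In other fits the log2 fold change was larger. It was 0.64 without steer 3-8 (unadjusted p = 0.00422), 0.56 without 3-1 (0.0340) and 0.72 with age as a term (0.0108). In the cattle assembly ARS-UCD2.0, NR1D1 overlaps THRA, a thyroid hormone receptor gene, and no source used here says whether reads were assigned by strand. THRA had a mean of 1986 normalized counts and a log2 fold change of 0.20 (unadjusted p = 0.314). NR1D2, the paralog of NR1D1, had 275, 382 and 301 against 233, 297 and 348 normalized counts. The groups overlapped, and the 95% interval of its log2 fold change of 0.12 ran from -0.35 to 0.59. With a steer left out this log2 fold change lay between -0.018 without 3-1 and 0.30 without 10-16, with 0.0074 without 10-8.

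DBP, a D-box activator whose mRNA swings widely over the day in many tissues, was the rarest of the 10 genes. Its raw counts were 75, 113 and 95 in steers 3-8, 10-8 and 10-9 and 41, 52 and 41 in steers 3-1, 3-3 and 10-16, so that the counting error alone was between 9.41% and 15.6% of a value. The groups did not overlap, with the high-NFMP steers above. Normalized, this was 99.0 ± 25.0 against 42.9 ± 4.63 (SD, n = 3 each), a log2 fold change of 1.20 (SE 0.31, unadjusted p = 0.00175, adjusted p = 0.119). With any 1 steer left out DBP was still past the threshold, at log2 fold changes from 1.03 to 1.36.

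The steers of the groups overlapped in the period genes PER1, PER2 and PER3, the other repressors of the loop. PER1, which also responds directly to cAMP and glucocorticoid, had 912, 890.1 and 1212 normalized counts in the high-NFMP steers and 541, 772 and 1019 in the low-NFMP steers (log2 fold change 0.37, 95% interval -0.12 to 0.86). With a steer left out this log2 fold change ran from 0.16 without 3-1 (unadjusted p = 0.501) and 0.23 without 10-9 (0.367) to 0.65 without 10-16 (0.0212). PER2 had 234, 437 and 317 against 205, 304 and 287 (log2 fold change 0.31, 95% interval -0.22 to 0.85), and with a steer left out from 0.09 without 10-8 (unadjusted p = 0.729) and 0.15 without 3-1 (0.585) to 0.50 without 3-8 (0.0581). PER3 varied most among the 10 genes, 5.12-fold between its highest and lowest library, with 152, 176 and 76.2 against 67.0, 147 and 34.3 normalized counts. Steer 3-3 stood at the level of 3-8, and the log2 fold change of 0.69 had a 95% interval from -0.38 to 1.77 (unadjusted p = 0.181). Without steer 3-3 PER3 passed the threshold, at a log2 fold change of 1.40 (unadjusted p = 0.00579), whereas without 10-16 it was at 0.35 (0.401) and without 10-8 at 0.48 (0.389). These intervals do not show that the period genes were alike in the groups.

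The levels of the 10 genes were ordered by their mean normalized count over the 6 libraries. In a 3′ library each transcript gives reads near its poly(A) tail, so these counts were not divided by length. CLOCK (1337), NR1D1 (1109) and PER1 (891) came first, followed by CRY1 (323), NR1D2 (306), PER2 (297), ARNTL (196), CRY2 (154), PER3 (109) and DBP (70.9). PER1 stood above CRY1 in 6 of 6 libraries without overlap of their ranges, and the other neighbours in this order overlapped. This order pools the groups. In the high-NFMP group the mean of NR1D1 (1284) was above that of CLOCK (1065) and those of PER2 (329) and NR1D2 (319) above that of CRY1 (270.3), and PER3 (135) was above ARNTL (117), while in the low-NFMP group CLOCK (1609) was above NR1D1 (933) and CRY1 (376) above NR1D2 (293) and PER2 (265), with ARNTL (276) between the last 2 of these. The order of ARNTL and CRY2 differed between the groups in all 6 libraries, since CRY2 was above ARNTL in the 3 high-NFMP steers and below it in the 3 low-NFMP steers.

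Within each library the arms were compared by the arm difference, which is the mean log2 deviation of the E-box and D-box genes from their own means over the 6 libraries, less that of the RORE genes. It was 1.30 in steer 10-8, 0.53 in 10-9 and 0.16 in 3-8, and -0.22 in 3-3, -0.68 in 3-1 and -1.10 in 10-16. All 3 high-NFMP steers were above 0 and all 3 low-NFMP steers below it, and steers 3-8 and 3-3 lay next to each other in the middle. The mean difference between the groups was 1.33 (SD within a group 0.58 and 0.44, n = 3 each). It is given without a test because it is a score over chosen genes. The steers labelled 3- held the middle of this order and those labelled 10- its ends.
Ratios of counts within a library, which need no normalization between libraries, are given as a description of the same genes. DBP reads per ARNTL read were 0.429, 1.51 and 1.06 in the high-NFMP steers and 0.197, 0.222 and 0.100 in the low-NFMP steers. These could not overlap, since neither gene did. NR1D1 reads per ARNTL read were 5.31, 17.1 and 16.4 in the high-NFMP steers and 5.35, 3.87 and 2.18 in the low-NFMP steers. Here steer 3-8 lay just below steer 3-1.

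**Figure D3:**
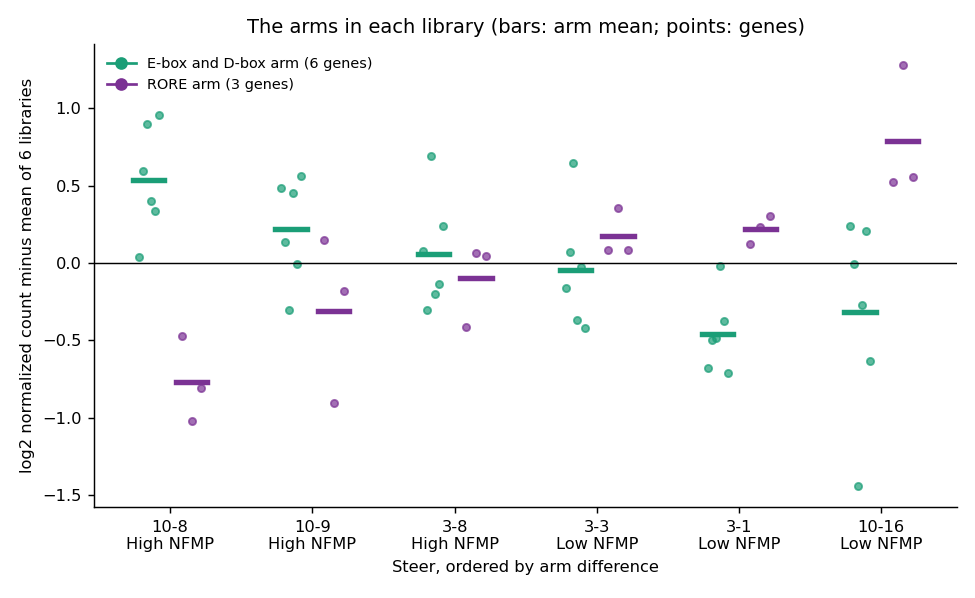
Log2 normalized count of each arm gene minus its mean over the 6 libraries (vertical axis), by steer in order of the arm difference. Points are genes and bars are arm means, for 6 E-box and D-box genes and 3 RORE genes. The arm means are farthest apart in steers 10-8 (0.54 and -0.77) and 10-16 (-0.32 and 0.79), with opposite sign, and close together in 3-8 (0.06 and -0.10).

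Across the 6 libraries, 14 of the 15 gene pairs within the E-box and D-box arm and all 3 pairs within the RORE arm had a positive Pearson r of their log2 normalized counts, and 17 of the 18 pairs across the arms had a negative r. This count rested on few libraries. Without the 2 libraries farthest from the median of the gene named first in a pair, 6 of the 15 and 3 of the 3 pairs within an arm were positive, and 12 of the 18 pairs across the arms were negative. These pairs share libraries and groups, and 3 steers per group are too few to look within a group. ARNTL and CLOCK had r = 0.90 (exact permutation p = 0.0208) and Spearman's rho = 0.94 (exact permutation p = 0.0167), and r = 0.83 without the 2 libraries farthest from the median of ARNTL. ARNTL and NR1D1 had r = -0.87 (exact permutation p = 0.0264), rho = -0.83 (exact permutation p = 0.0583) and r = -0.93 without those 2 libraries. Adjusted over all 45 pairs, the p of r was 0.148 for both and that of rho was 0.188 and 0.239, so neither passed.

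The steer labels start with the number 3 or 10, whose meaning no source used here gives, and each number holds steers of both groups. Within the steers labelled 3- (1 high, 2 low) ARNTL differed by -0.23 on the log2 scale between high and low NFMP, and within those labelled 10- (2 high, 1 low) by -2.24. CLOCK differed by -0.15 and -1.04, and NR1D1 by -0.0046 and 0.70. The difference of these 3 genes was thus small in the steers labelled 3-. CRY2 differed by 0.86 and 0.92, DBP by 0.80 and 1.39, and CRY1 by -0.51 and -0.69, so that these kept their direction and most of their size within both numbers. PER3 differed by 0.61 and 1.74, whereas PER1 (0.50 and 0.03), PER2 (-0.09 and 0.38) and NR1D2 (0.06 and -0.04) were small in at least 1 of them. With the number as a term in edgeR the log2 fold change was -1.24 for ARNTL, 1.10 for DBP and 0.89 for CRY2, and PER3 passed the threshold at 1.13 (unadjusted p = 0.0470). In that fit NR1D1, at 0.34, was no longer at an unadjusted p below 0.05 (0.137), and CRY1, at -0.58, was (0.0201).

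**Figure D4:**
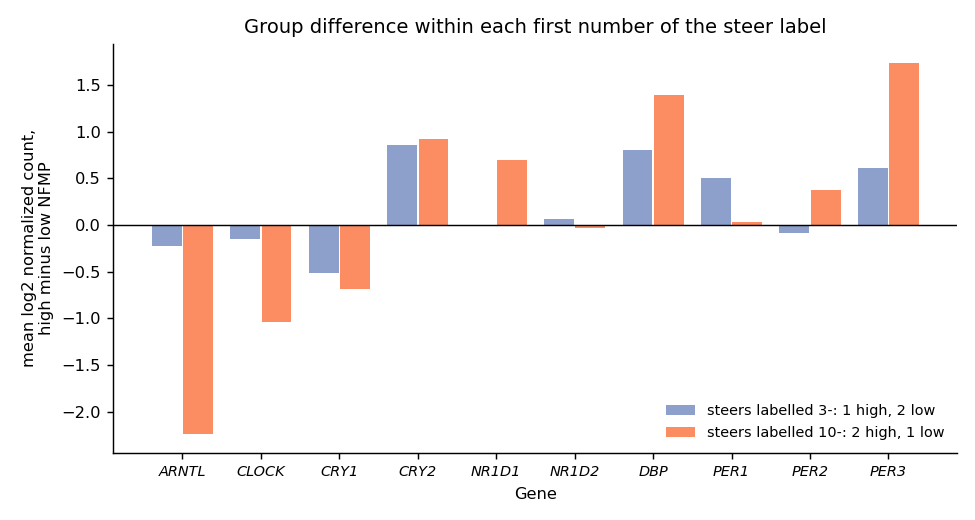
Mean log2 normalized count of the high-NFMP steers minus that of the low-NFMP steers (vertical axis) for each clock gene, within the steers labelled 3- and within those labelled 10-. Each bar rests on 3 steers and has no error. ARNTL, CLOCK and NR1D1 have most of their difference in the steers labelled 10-, while CRY2 differs by 0.86 and 0.92.

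Other parts of the clock were described by a list of 25 regulators, of which 22 were tested. None passed the p and fold change threshold, and at an unadjusted p below 0.05 there were 2 higher and 3 lower genes. Of all tested genes 3.9% and 11.5% did so, and the median log2 fold change of the list was -0.01. CSNK1E, a kinase that marks PER proteins for turnover, was higher (326 ± 30.8 against 209 ± 33.2 normalized counts, SD, n = 3 each), with a log2 fold change of 0.64 (unadjusted p = 0.00870, adjusted p = 0.247). BHLHE41 (DEC2), an E-box repressor, had a log2 fold change of 0.60 (unadjusted p = 0.0267). FBXW11, an F-box protein of the ubiquitin ligase that removes PER proteins, had -0.45 and TIPIN, the partner of TIMELESS, -0.91. Of the D-box activators related to DBP, HLF was lower (log2 fold change -0.52, unadjusted p = 0.0445) and TEF was at 0.47 (unadjusted p = 0.0980). The most abundant regulators were RORA, the activator that competes with NR1D1 at ROREs, and the ubiquitin protease USP2, with means of 6774 and 5068 normalized counts and log2 fold changes of 0.28 and -0.10.

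Of 24 genes known to be clock-controlled in muscle, all were tested, none passed the threshold, and 2 were higher and 2 lower at an unadjusted p below 0.05, against 3.9% and 11.5% of all tested genes (median log2 fold change of the list -0.07). PPARGC1A, a coactivator of mitochondrial genes that also acts with ROR proteins on ARNTL, had 4009 ± 1136 against 2115 ± 637 normalized counts (SD, n = 3 each) at a log2 fold change of 0.92 (unadjusted p = 0.00249, adjusted p = 0.145). VGLL2, a muscle transcription cofactor, was at 0.73, and FKBP5 and the pyruvate dehydrogenase phosphatase PDP1 were at -0.60 and -0.45. The most abundant, PDK4 and PFKFB3, which set the use of glucose, had log2 fold changes of -0.51 (unadjusted p = 0.0556) and -0.04.
Glucocorticoid and cAMP reset clocks of peripheral tissues and act on PER1. Of 23 listed responsive genes 22 were tested, and 2 were higher and 3 lower at an unadjusted p below 0.05, against 11.5% of all tested genes (median log2 fold change of the list -0.004). At the threshold there was 1 of the 22, against 3.9%. This gene, the orphan nuclear receptor NR4A2, had 412 ± 38.4 against 199 ± 51.6 normalized counts (SD, n = 3 each), and was 1.05 higher on the log2 scale (SE 0.22; adjusted p = 0.0495, from 0.00031 unadjusted). It was no longer past the threshold with library totals alone or without steer 3-8, 3-1 or 3-3. Genes known to be induced by glucocorticoid had log2 fold changes of both signs. KLF9, which is also a clock output, was at 0.79 (unadjusted p = 0.00165), while TSC22D3 was at -0.73 (unadjusted p = 0.00145), FKBP5 at -0.60 and DUSP1 at -0.48. ZBTB16, with a mean of 16527 normalized counts, was at 0.03.

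**Figure D5:**
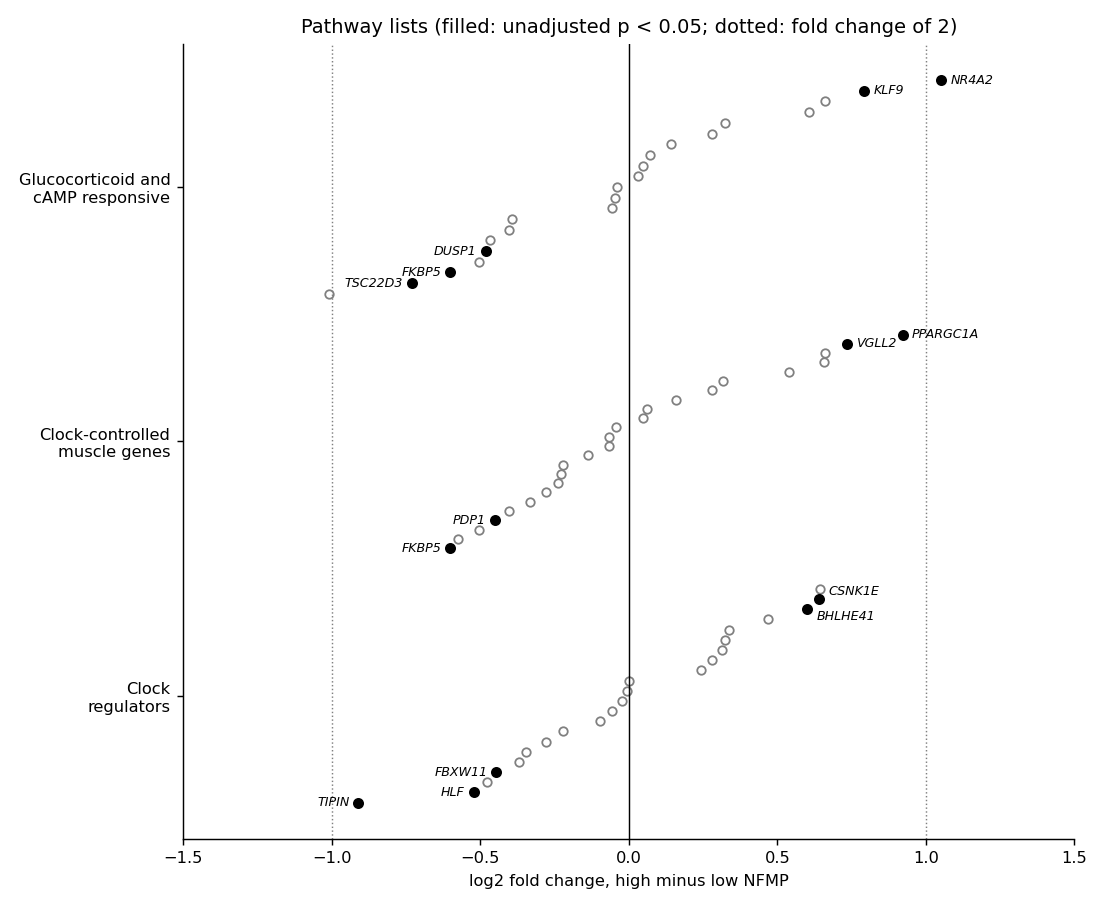
The log2 fold change (horizontal axis, high minus low NFMP) of each tested gene in the lists of clock regulators, clock-controlled muscle genes and glucocorticoid and cAMP responsive genes, with the 10 core genes left out and genes spread vertically by rank within a list. Filled, named points have an unadjusted p below 0.05, and FKBP5 stands in both of the upper lists. NR4A2 alone lies beyond the fold change of 2 with such a p.

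Markers of other cells were checked in the same libraries. All 8 adipocyte markers were tested and had a log2 fold change above 0 (median 0.54), against 7805 of 15039 tested genes. CIDEC, ADIPOQ and PLIN4 were higher at an unadjusted p below 0.05, against 5.73% of all tested genes. In ADIPOQ and CIDEC all high-NFMP steers lay above all low-NFMP steers, against 7.97% of all tested genes. Their summed normalized counts ran from 6155 to 14694 in the high-NFMP steers and from 6471 to 7743 in the low-NFMP steers. By steer, the adipocyte sums were 14694, 9030 and 6155 in 3-8, 10-8 and 10-9 and 6924, 7743 and 6471 in 3-1, 3-3 and 10-16. The summed fibroblast markers ran from 11823 to 14721 against 9131 to 12035, the endothelial from 811 to 1155 against 794 to 1030, the immune from 787 to 1238 against 561 to 951, and the blood markers, of which 1 of 3 was tested, from 26.7 to 53.7 against 35.4 to 38.9. In these lists PDGFRA of the fibroblasts was lower and CD74 of the immune cells higher at an unadjusted p below 0.05. Of all tested genes 5.74% were lower and 5.73% higher at that level. None of the marker lists held a gene at 0 in every library. The part of these cells in the clock gene differences was not tested. With age as a term the log2 fold changes were -1.63 for ARNTL, 1.18 for DBP and 0.86 for CRY2, all at an unadjusted p below 0.05 by edgeR, whereas PER3 was at 0.18 and CLOCK, at -0.61, had an unadjusted p of 0.0648 by edgeR. NR1D1 was at 0.72 in that fit (unadjusted p = 0.0108 by edgeR).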

How the data were processed

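RNA from LT muscle of 6 steers was sequenced from 3′ mRNA libraries (SENSE 3′ in the paper, Quant-Seq per the labels). The authors deposited raw read counts per gene symbol, for 23015 rows. The paper names Tophat2 with HTSeq in one place and Bowtie2 with unique and multiple alignments in another, and the submitters' processing notes name Bowtie2 and bedtools. No source used here says which of these made the counts, and genes with shared sequence can share reads. The totals differ between libraries, so the quantile normalization of the paper is not in the values.

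The analysis ran in edgeR 4.0.16 (R 4.3.3), with the default filter (minimum count 10, minimum total 15; 15039 rows kept), TMM factors and the quasi-likelihood test with robust dispersions. The threshold was an unadjusted p below 0.05 together with a more than 2-fold change, and p-values were adjusted over all tested genes. Standard errors and 95% intervals came from the F statistic. Log2 deviations and correlations used a pseudocount of 0.5. With 3 steers per group the smallest exact two-sided permutation p is 0.1, so the p-values of single genes depend on the variance model of edgeR. Reads carry no molecular identifiers, and counting errors cover counting only. In simulated counts for high against low NFMP over 15039 genes, this threshold found 53% of genes with a true log2 fold change of 1 and 98% of those with 2, and 4.72% of unchanged genes had a p below 0.05.

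The clock genes and all lists were chosen with earlier results of these data known. Named were the 10 core genes, the list genes at an unadjusted p below 0.05, the 2 most abundant tested genes of each list and the 3 genes most like ARNTL and NR1D1. The text also names NPAS2, TEF and CIART, and neighbours of the clock genes. Neighbours were read from RefSeq genes on ARS-UCD2.0, which is not the assembly of the paper, so no coordinates are given. Alternatives were other filters, RLE size factors, library totals, DESeq2 1.42.0, quantile normalization of log2(count + 1) with limma 3.58.1, the label number or the age in the model, and leaving out 1 steer at a time. The interaction with the label number was added after seeing the data.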

Additional observations from a re-analysis of the deposited data

Results flagged for a closer look

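The difference in ARNTL between high and low NFMP was not the same in the steers labelled 3- and those labelled 10-. It was -0.23 on the log2 scale within the former and -2.24 within the latter, and the interaction term in edgeR was -2.02 (standard error 0.43, unadjusted p = 0.000992 by edgeR). Over all 15039 genes the adjusted p was 0.925, no gene had an adjusted p below 0.05, and 4.23% had an unadjusted p below 0.05, so the difference fails the correction. The fit left 2 residual degrees of freedom, and each number holds a group with a single steer. Among the other 9 clock genes the unadjusted p of this term by edgeR was lowest for CLOCK (0.0695) and NR1D1 (0.0857).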

How the results depend on the processing

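The log2 fold changes of ARNTL, CLOCK, CRY1, CRY2, NR1D1, DBP, PER1, PER2 and PER3 kept their sign in all 14 fits each, and that of NR1D2 turned once, to -0.018 without steer 3-1 (from there to 0.30 with a steer left out). DBP passed the p and fold change threshold in 14 of 14 fits (log2 fold change 1.03 to 1.36), ARNTL in 13 (-1.67 to -0.80, lost without steer 10-16) and CRY2 in none (0.82 to 0.95), although its unadjusted p by edgeR, DESeq2 or limma was below 0.05 in all 14. The adjusted p of ARNTL ranged from 0.0266 with DESeq2 to 0.438, that of CRY2 from 0.0266 to 0.423 and that of DBP from 0.0315 to 0.410. Of the 10 genes, 2 passed the threshold, and 1 (without 10-16) to 3 (without 3-3) with a steer left out. At an unadjusted p below 0.05 there were 5, with 6 without the filter, 6 with the label number as a term and 4 with age as a term. There were 3 after quantile normalization with limma and 3 (without 10-8) to 5 with a steer left out. Over all genes the shares at that p were 11.5% in the main fit, 9.76% without the filter and 10.1% with the label number. They were 8.38% with age, 11% with limma and 8.45% to 15.3% with a steer left out. Of the 63 other list genes tested 1 passed, against 0 with library totals alone, 2 with quantile normalization, 5 with age as a term and 1 to 4 with a steer left out (63 or 64 tested). Over all genes the shares in these fits were 3.9%, 3.74%, 4%, 4.33% and 4.06% to 4.83%. The arm difference between the groups stayed between 1.01 and 1.58 with a steer left out, and was 1.48 without CRY1, 1.38 with CRY2 and 1.43 without PER1 and PER2. These changes of genes could only raise it. CRY1, PER1 and PER2 differed less between the groups than the mean of their arms. CRY2 differed more than the mean of the E-box and D-box arm. The arm difference was not computed without ARNTL or DBP, so its dependence on these genes was not tested. Over all genes 586 passed, with 969 without a filter and 364 at 10 counts in every library, and the adjusted count of 103 went from 0 with limma (11% at an unadjusted p below 0.05) to 291 with DESeq2. No paired analysis was possible because the labels give the groups no shared replicate numbers. The first number of the steer label is shared by steers of both groups but pairs no single steers. With it as a term 3 of the 10 genes passed the threshold (ARNTL, DBP and PER3), against 3.68% of all tested genes. The low counts of DBP and PER3 limit the precision of their values.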

Other observations

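The genes most like ARNTL and NR1D1 over the 6 libraries were looked up among the tested genes with a mean of at least 100 normalized counts. DIXDC1 (Pearson r = 0.99, Spearman's rho = 0.77), TRA2A (0.99 and 1) and HSPB11 (0.98 and 0.89) followed ARNTL most closely. CLOCK, at r = 0.90, ranked 157 of 8728 genes from the top, and NR1D1, at r = -0.87, ranked 113 from the bottom. Of the other clock genes, CRY1 ranked 1354 from the top, NR1D2 5342, PER1 5616, PER2 7219, PER3 7587 and CRY2 8464. DBP, at r = -0.88, had too low a mean to be ranked. For NR1D1 the closest were MVB12A, RPL12 and SIPA1L1, each with r = 0.99, and ARNTL ranked 280 from the bottom. Here CRY2 ranked 1080 from the top, PER2 1871, PER1 2761, NR1D2 3006, PER3 3564, CRY1 5646 and CLOCK 7751. Of the 8728 genes, 149 had an r above 0.9 with ARNTL and 141 with NR1D1. With 6 libraries such values do not single out a gene, and they are given as a description. CIART, an E-box gene that represses CLOCK and ARNTL, had r = 0.44 with ARNTL and -0.53 with NR1D1.

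The long noncoding RNA gene LOC112444600, named after its values were seen, lies 157 bases from NR1D2 in ARS-UCD2.0. It had 57.1 ± 16.3 against 27.0 ± 5.63 normalized counts in the high- and low-NFMP steers (SD, n = 3 each) and passed the p and fold change threshold (log2 fold change 1.07, unadjusted p = 0.0131, adjusted p = 0.282 by edgeR), while NR1D2 was at 0.12. The neighbours of DBP, SPHK2 and CA11, were at 0.33 and 0.57, with unadjusted p-values by edgeR of 0.289 and 0.179.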
